A study of Mus musculus and Homo sapiens with 20 samples.

Results

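The genes described are those of 9 subunits of canonical Polycomb repressive complex 1 (PRC1): the chromobox genes Cbx2, Cbx6, Cbx7 and Cbx8, the PCGF genes Bmi1 and Pcgf2, the polyhomeotic genes Phc1 and Phc2, and the E3 ligase gene Rnf2. They were taken by gene symbol from a fixed list, and all 9 were found among 21938 mouse and, in upper case, among 20033 human protein-coding genes. The study profiled monoubiquitylated histone H2A (H2AK119ub) and trimethylated histone H3 (H3K27me3), each named for its lysine, by CUT&Tag, in which an antibody-tethered transposase cuts and tags the DNA around a histone mark. The deposited peak lists came from 20 libraries in 10 groups of 2. Both marks were profiled in wild-type (WT) and Tet2 knockout (KO) cells of 2 mouse kinds, embryonic stem (mES) cells and haematopoietic stem and progenitor cells (HSPCs). In K562, a human leukaemia line, H2AK119ub was profiled after control siRNA (siControl) or siRNA against MBD6 (siMBD6).

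The WT and Tet2 KO mES cells came from another laboratory, the number of clones is not given, and they were grown in serum with LIF, CHIR99021 and PD0325901 after feeder cells had been cleared by passaging on gelatin. The HSPCs were lineage-negative, c-Kit-positive marrow cells sorted with magnetic beads from WT or Tet2-/- mice of 6 to 8 weeks on a C57BL/6 background. Both sexes were used in the study and the sex behind each library is not given. The K562 siRNAs were delivered by nucleofection, and the labels give no TET2 status for these cells. The study's own sample list has H2AK119ub after siMBD6 in TET2 KO K562 cells, and after control siRNA in both WT and TET2 KO cells. Whether the groups compared here shared a TET2 status is therefore not known. The study's methods speak of biological replicates, but the labels number these libraries 1 and 2 without naming separate cultures or animals. The p-values measure the spread between these libraries, part of which may be technical. Peak positions do not measure the Tet2 deletion or the MBD6 knockdown. A peak from many cells also does not give the share of cells that carry the mark there.

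In canonical PRC1, RNF2 or its paralogue RING1 pairs with PCGF2 or BMI1 to place ubiquitin on H2A, a CBX protein binds H3K27me3 through its chromodomain, and PHC proteins join complexes together through their SAM domains. H3K27me3 itself is placed by PRC2. Several genes for these subunits are textbook Polycomb targets in embryonic stem cells, where Cbx7 is the main CBX gene in use and Cbx2 and Cbx8 are held back until differentiation. In blood-forming cells, Bmi1 is known for its part in stem cell self-renewal. The question put to the peak lists was whether the complex's own genes lie under its mark and under the mark its CBX subunits read, and whether that differs between cell types or with the loss of Tet2. For every gene, the percent of the bases within 1 kb of the gene start (promoter window) and the percent of the whole gene span under at least 1 peak were taken in each library.

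The 200 bases before the annotated start (mm10) are shown for the members at the upper and lower end of H2AK119ub promoter coverage, with every CG dinucleotide in capitals because Polycomb complexes are typically found at CG-rich promoters. Averaged over the 8 mouse H2AK119ub libraries, Cbx8 had the highest promoter coverage (100%) and Phc1 the lowest (17.1%). Pcgf2, Phc2 and both start regions of Cbx7 were added after their values were seen, because their H3K27me3 differed between the cell types. The positions are chr11:119040970-119041169 (minus strand) for Cbx8, chr6:122340562-122340761 (minus) for Phc1, chr11:97700498-97700697 (minus) for Pcgf2 and chr4:128654502-128654701 (plus) for Phc2. For Cbx7 they are chr15:79971120-79971319 (minus) at the gene's 5′ end and chr15:79932769-79932968 (minus) at a start cluster 38.4 kb downstream. None of these 6 stretches overlaps an annotated exon, and the letters are from the GRCm38 genome.
Cbx8, gene start: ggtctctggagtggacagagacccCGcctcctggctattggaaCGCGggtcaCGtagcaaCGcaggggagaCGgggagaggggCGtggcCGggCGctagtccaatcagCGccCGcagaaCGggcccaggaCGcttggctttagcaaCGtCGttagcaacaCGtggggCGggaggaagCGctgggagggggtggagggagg
Phc1, gene start: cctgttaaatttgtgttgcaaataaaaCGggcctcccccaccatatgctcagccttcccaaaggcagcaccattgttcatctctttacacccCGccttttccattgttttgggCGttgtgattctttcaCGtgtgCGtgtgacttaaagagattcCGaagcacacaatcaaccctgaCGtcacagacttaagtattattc
Pcgf2, gene start: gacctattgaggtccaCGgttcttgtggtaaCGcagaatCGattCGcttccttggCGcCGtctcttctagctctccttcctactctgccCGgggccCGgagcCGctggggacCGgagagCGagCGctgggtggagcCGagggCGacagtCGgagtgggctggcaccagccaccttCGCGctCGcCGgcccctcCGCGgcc
Phc2, gene start: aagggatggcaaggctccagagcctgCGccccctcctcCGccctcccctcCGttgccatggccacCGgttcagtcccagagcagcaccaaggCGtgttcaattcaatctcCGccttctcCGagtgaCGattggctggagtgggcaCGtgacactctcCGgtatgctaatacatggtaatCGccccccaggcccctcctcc
Cbx7, gene start: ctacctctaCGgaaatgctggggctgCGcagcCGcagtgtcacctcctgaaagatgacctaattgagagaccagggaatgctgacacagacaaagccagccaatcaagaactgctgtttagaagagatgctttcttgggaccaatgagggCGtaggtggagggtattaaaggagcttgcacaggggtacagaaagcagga
Cbx7, downstream start: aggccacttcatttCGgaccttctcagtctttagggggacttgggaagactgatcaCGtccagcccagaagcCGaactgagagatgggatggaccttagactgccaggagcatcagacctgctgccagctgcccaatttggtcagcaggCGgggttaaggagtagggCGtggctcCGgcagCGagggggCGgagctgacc

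The Pcgf2 stretch holds 21 CG, a number reached by 11.9% of the 21938 mouse genes in the same window. Cbx8 has 18 CG (18.1% of genes have as many), Phc2 has 11 (38.4%) and Phc1 has 7 (51.7%). At Cbx7 the downstream start has 8 CG (48.1%) and the gene's 5′ end has 4 (65.2%). At least 1 CG is present in 90.4% of genes, with a median of 7. Counted over the whole promoter window, the order of the members by CG number was not their order by H2AK119ub. Bmi1 had the most CG of the 9 (243, matched by 0.114% of promoters, against a median of 61) and a mean H2AK119ub coverage of 25.9%. Rnf2 had 156 CG and 34.2%, whereas Cbx8 had 120 CG and 100%, Pcgf2 had 133 CG and 95.6%, and Cbx2 had 157 CG and 89.9%. Phc2 (106 CG, 87.0%) and Phc1 (107 CG, 17.1%) differed by 1 CG. Cbx6 had 101 CG and 62.2%, and Cbx7, the one member below the median of all promoters, had 49 CG and 20.9%.

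The mouse lists held 85098 to 167326 peaks covering 138.8 to 259.9 Mb, and the K562 lists 91547 to 110648 peaks covering 132.1 to 190.2 Mb. Read depth is unknown because the lists hold no counts, and between 30.4% and 41.4% of peaks in each list were exactly 501 bp wide. One such peak covers 25.0% of a promoter window, so many low promoter values below are that single step. The labelled cell types were checked at their marker genes. Of 6 genes that mark mES cells, 1 had H3K27me3 at its promoter in both mES WT libraries and 5 did in both HSPC WT libraries. Mean H3K27me3 promoter coverage of 6 HSPC marker genes was 62.3% in mES WT cells and 35.7% in WT HSPCs. H2AK119ub went the other way: it touched 6 of the 6 mES markers in mES WT cells and 2 in WT HSPCs, and its mean at the HSPC markers was 59.6 and 70.1%. Of 7 markers of lymphoid and stromal cells, 6 carried H3K27me3 in mES WT cells and 5 in WT HSPCs, and 4 of 6 erythroid markers of K562 carried H2AK119ub there. On the X chromosome, the H3K27me3 lists of WT HSPCs covered 1.05 and 1.07 Mb, against 24.3 and 21.7 Mb for KO HSPCs. All 9 mouse members lie on autosomes.

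H2AK119ub touched the promoter of nearly every member in the mouse cells. H3K27me3 touched that of about every other one, which in mES WT cells and in HSPCs was near the share of all genes. A promoter counted as touched when at least 1 bp of the window lay under a peak in both libraries of a group. For H2AK119ub this held for 8 of 9 members in mES WT cells (63.1% of all genes), 7 of 9 in mES KO cells (63.5%), 9 of 9 in WT HSPCs (60.5%) and 8 of 9 in KO HSPCs (67.6%). For H3K27me3 it held for 4 of 9 in both mES WT (44.3% of all genes) and mES KO cells (34.8%), and for 5 of 9 in both WT (54%) and KO HSPCs (56.5%). With at least 50% of the window required, the H2AK119ub count was 4 in mES WT cells (36.3% of all genes) and 5 in each of the other groups (37.2% for mES KO, 35.9% for WT HSPCs, 46% for KO HSPCs). The H3K27me3 count was then 4 in mES WT (28.3%), 3 in mES KO (23.4%), and 3 in WT (29.3%) as well as in KO HSPCs (30.4%). Both marks touched the promoters of Cbx2, Cbx8, Bmi1 and Phc2 in all 8 mES libraries (4 of 9, against 31% of all genes). In HSPCs the corresponding 4 were Cbx2, Cbx8, Bmi1 and Pcgf2 (42% of all genes). H2AK119ub in all 4 libraries with no H3K27me3 in any was seen at Cbx6 and Pcgf2 in mES cells (13.3% of all genes) and at Rnf2 in HSPCs (3.5%).

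**Figure D1:**
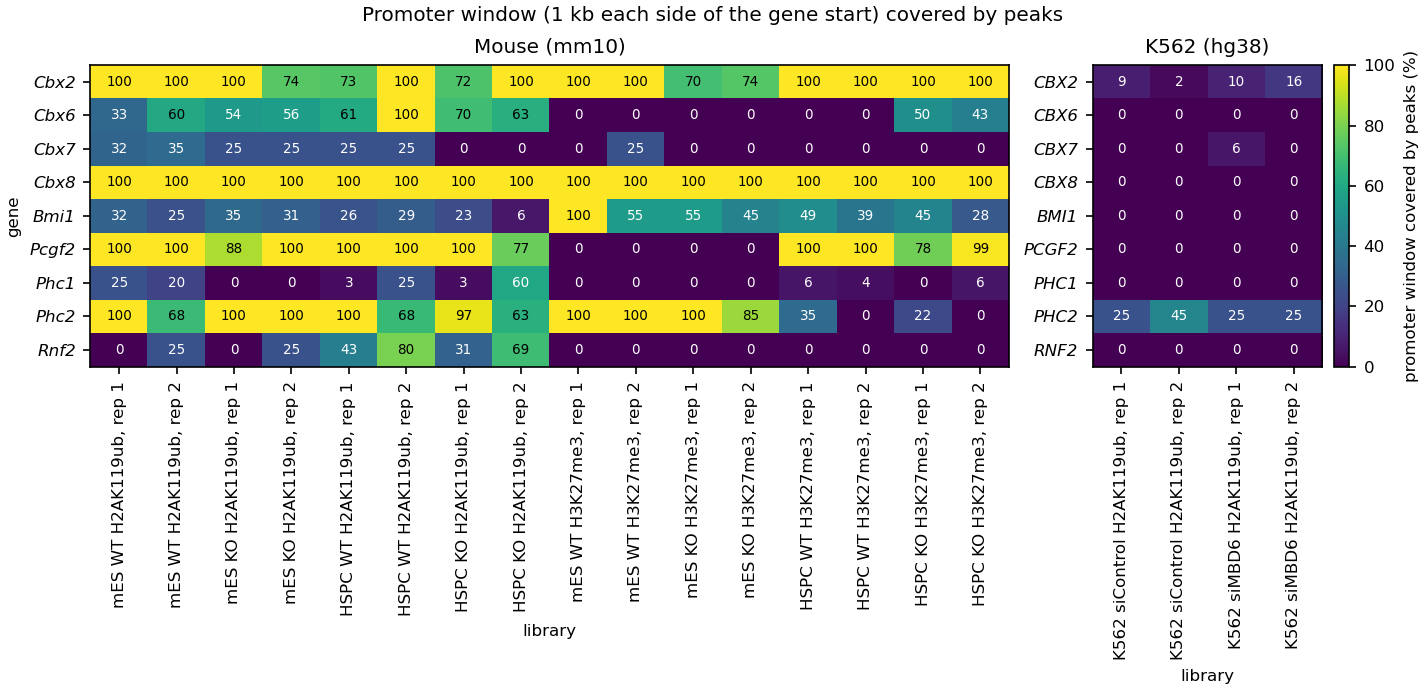
Percent of the promoter window (1 kb on each side of the gene start) under peaks for the 9 members, 1 box per library with its rounded value, mouse libraries at left and K562 at right, running from dark at 0 to yellow at 100. Cbx8 is at 100 in all 16 mouse libraries, Pcgf2 has H3K27me3 in the HSPC columns and 0 in the mES columns, and Rnf2 is at 0 in every H3K27me3 column.

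Among the chromobox genes, Cbx2 and Cbx8 were the most fully marked. They lie next to each other on chromosome 11, Cbx2 at chr11:119022962-119031270 on the plus strand and Cbx8 at chr11:119036305-119040969 on the minus strand. The 1 Mb on each side of Cbx2, leaving out 10 kb around the gene, was 61.7 to 64.5% under H2AK119ub in mES cells. In HSPCs it was 45.0 to 49.9%. H3K27me3 covered 34.6 to 45.1% of this region in mES cells and 35.1 to 37.7% in HSPCs. The Cbx8 promoter was 100% covered in all 16 mouse libraries, which was so for 1.54% of genes. Its span was 100% covered by H3K27me3 in all 8 libraries (1.52% of genes) and by H2AK119ub in all 4 mES libraries (3.05%). In HSPCs the H2AK119ub span values of Cbx8 were 100 and 83.2% for WT, and 80.8 and 82.1% for KO. The widest H3K27me3 peak at the Cbx8 promoter measured 71.7 and 73.1 kb in mES WT cells and 38.1 and 34.8 kb in mES KO cells. The share of all genes with such a gap in peak width was not computed. In HSPCs it measured 35.2 and 34.7 kb for WT, and 44.1 and 36.2 kb for KO. The H2AK119ub peak there was 15.7 kb in both mES WT libraries, 37.1 and 36.1 kb in mES KO, 39.9 and 29.4 kb in WT HSPCs, and 30.5 and 30.8 kb in KO HSPCs. Where one peak ends and the next begins is set by the peak caller, and the covered percent of Cbx8 was 100 at the promoter on both sides of these differences.

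Cbx2, whose product binds both H3K27me3 and DNA and compacts chromatin, had H2AK119ub over 100 and 97.6% of its span in mES WT and 99.4 and 94.0% in mES KO cells. In HSPCs the values were 100 and 98.8% for WT, and 97.4 and 98.2% for KO. H3K27me3 covered less of it: 53.0 and 71.0% in mES WT, 48.9 and 37.3% in mES KO, 80.5 and 88.3% in WT HSPCs and 73.4 and 64.2% in KO HSPCs. Its promoter was fully under H3K27me3 in every library but those of mES KO cells, which gave 69.97 and 73.7%. Taken as the bases under both marks in every library of a genotype, the shared part of Cbx2 was 50.6% in mES WT, 35.2% in mES KO, 68.8% in WT HSPCs and 57.2% in KO HSPCs. The 18.0 kb from the Cbx2 start to the Cbx8 start were 88.6 to 100% under H2AK119ub over the 8 mouse libraries. They were 78.3 and 86.6% under H3K27me3 in mES WT, 76.4 and 60.6% in mES KO, 91.0 and 94.1% in WT HSPCs and 83.6 and 73.8% in KO HSPCs. No peak spanned the whole locus except 1 H2AK119ub peak in WT HSPC replicate 1.

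Cbx6 and Cbx7 lie on the minus strand of chromosome 15, at chr15:79823896-79834688 and chr15:79915807-79971119. Cbx6 was mostly under H2AK119ub, with span values of 72.05 and 73.0% in mES WT, 76.2 and 70.1% in mES KO, 90.3 and 76.1% in WT HSPCs and 85.0 and 83.7% in KO HSPCs. Exons make up 98.3% of the Cbx6 span in the annotation. H3K27me3 covered 4.64 and 0% of it in mES WT and 0% in both mES KO libraries, against 24.7 and 16.4% in WT HSPCs and 15.0 and 20.8% in KO HSPCs. At the Cbx6 promoter H3K27me3 was at 0 in all mES libraries and in both WT HSPC libraries, and at 49.9 and 43.3% in KO HSPCs.

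Cbx7 gave different answers at its different starts. At the 5′ end of the gene, used by 2 coding transcripts, H2AK119ub covered 32.3 and 35.1% of the window in mES WT, 25.0% in both mES KO and both WT HSPC libraries, and 0% in both KO HSPC libraries. H3K27me3 was at 0 there except in mES WT replicate 2, where a single 501-bp peak gave 25.0%. At the start cluster 38.4 kb downstream, used by 4 coding transcripts, H3K27me3 covered 93.9 and 85.9% in WT HSPCs and 100 and 83.1% in KO HSPCs, and 0% in all 4 mES libraries. H2AK119ub at that start was 57.7 and 100% in mES WT and 100% in the other 6 mouse libraries. A further coding start at 37.2 kb, whose window overlaps that one, was 100% under H3K27me3 in all 4 HSPC libraries and 0% in all mES libraries. H2AK119ub without H3K27me3 was thus measured inside Cbx7 in mES cells, and both marks were measured there in HSPCs. Over the whole span, H2AK119ub was 32.2 and 26.3% in mES WT, 37.5 and 33.4% in mES KO, 59.0 and 39.7% in WT HSPCs and 55.5 and 52.8% in KO HSPCs. In mES cells these values were below those of the flanking region of Cbx7, 42.1 to 45.0%. In HSPCs that region was at 38.4 to 41.1%. H3K27me3 over the span was 0 and 0.378% in mES WT, 0% in both mES KO, 36.1 and 37.2% in WT HSPCs and 23.7 and 18.6% in KO HSPCs.

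**Figure D2:**
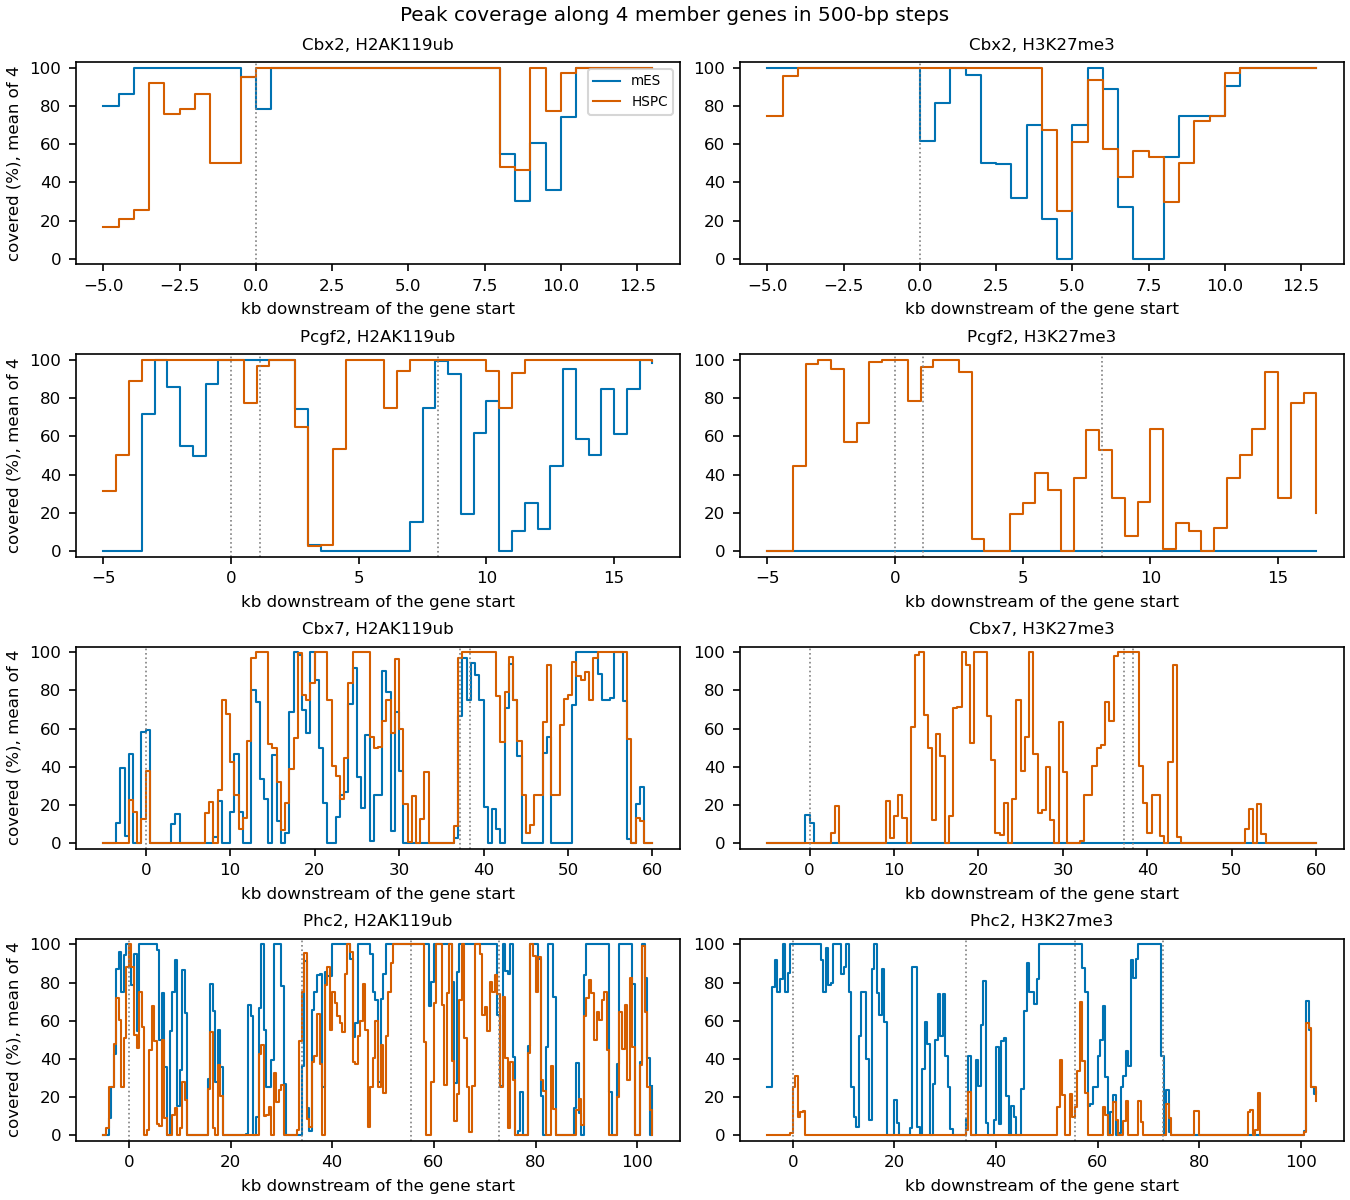
Percent of each 500-bp step covered by H2AK119ub and by H3K27me3 peaks, averaged over the 4 libraries of a cell type, against kb downstream of the gene start for Cbx2, Pcgf2, Cbx7 and Phc2, with dotted lines at annotated starts. In HSPCs the H3K27me3 line of Cbx7 is near the top at the downstream starts, where it is at 0 in mES cells.

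The PCGF genes differed from each other. Bmi1 (chr2:18677018-18686629, plus strand) had more of its promoter under H3K27me3 than under H2AK119ub. Its H2AK119ub promoter values were 31.7 and 24.8% in mES WT, 34.6 and 30.6% in mES KO, 25.8 and 29.5% in WT HSPCs and 23.4 and 6.30% in KO HSPCs. The H3K27me3 values at the same window were 100 and 55.4%, 54.9 and 44.7%, 48.9 and 38.9%, and 45.0 and 28.0% in the same order. In each of the 4 groups, both H3K27me3 libraries lay above both H2AK119ub libraries. The share of all promoters with this order of the marks was not computed. A second Bmi1 start 3.35 kb downstream, used by 4 coding transcripts, was 100% under H3K27me3 in all 8 libraries, while H2AK119ub there ran from 70.3 to 100% over the mES libraries and from 7.35 to 100% over the HSPC libraries. Bmi1 stood out from its neighbourhood: the 1 Mb on each side, leaving out 10 kb around the gene, was 7.07 to 8.13% covered by H2AK119ub and 7.60 to 12.9% by H3K27me3 in mES cells.

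Pcgf2 (chr11:97688823-97700497, minus strand), which encodes MEL18, had H2AK119ub at the promoter in both cell types and H3K27me3 in HSPCs alone. Promoter H2AK119ub was 100% in both mES WT libraries, 87.6 and 100% in mES KO, 100% in both WT HSPC libraries and 100 and 77.3% in KO HSPCs. Promoter H3K27me3 was 0% in all 4 mES libraries, 100% in both WT HSPC libraries and 78.3 and 99.0% in KO HSPCs. The CG-rich stretch printed above for Pcgf2 lies in this window. No H3K27me3 peak lay anywhere in the Pcgf2 span in mES cells, and in HSPCs 49.7 and 55.9% of it was covered for WT, and 33.7 and 31.1% for KO. H2AK119ub covered 37.8 and 45.2% of the span in mES WT and 46.0 and 48.7% in mES KO, against 84.1 and 84.4% for WT HSPCs, and 92.4 and 75.6% for KO HSPCs. The bases under both marks in every library made up 36.6% of the gene in WT and 19.8% in KO HSPCs.

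The polyhomeotic genes differed widely from each other in mES cells and less in HSPCs. Phc1 (chr6:122317731-122340561, minus strand), the paralogue known for high use in embryonic stem cells, was nearly bare of both marks in mES cells. H2AK119ub covered 0.548% of its span in mES WT replicate 1 and 0% in the other 3 mES libraries, and H3K27me3 covered 0% in all 4. In HSPCs its H2AK119ub span values were 15.2 and 8.41% for WT, and 6.58 and 17.7% for KO. Its H3K27me3 values were 3.57 and 2.19% for WT, and 0 and 3.44% for KO. At the promoter, H2AK119ub was 25.0 and 20.4% in mES WT from a single 501-bp peak each, and 0% in both mES KO libraries. In HSPCs it was 3.45 and 25.0% for WT, and 3.45 and 59.8% for KO, so the replicates differed more than the genotypes. The surroundings of Phc1 also differed between the mES genotypes: H2AK119ub covered 18.1 and 18.3% of the flanking bases for WT, and 13.2 and 11.8% for KO, and the part of this in the promoter values was not tested.

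Phc2 (chr4:128654702-128752881, plus strand) was marked by H2AK119ub in both cell types and by H3K27me3 almost exclusively in mES cells. Promoter H2AK119ub was 100 and 68.3% in mES WT, 100% in both mES KO, 100 and 67.5% in WT HSPCs and 96.6 and 63.4% in KO HSPCs. Promoter H3K27me3 was 100% in both mES WT libraries and 100 and 85.1% in mES KO, against 35.1 and 0% in WT HSPCs and 22.0 and 0% in KO HSPCs. A non-coding start 55.5 kb into the gene showed the same split: H2AK119ub covered 100% in all 8 libraries, and H3K27me3 100% in all 4 mES libraries but 69.5 and 0% for WT HSPCs, and 0 and 6.75% for KO HSPCs. Over the 98-kb span, H2AK119ub was 64.4 and 57.2% in mES WT, 65.8 and 65.1% in mES KO, 40.2 and 36.2% in WT HSPCs and 36.3 and 43.3% in KO HSPCs. H3K27me3 was 39.3 and 44.8% in mES WT, 43.2 and 38.0% in mES KO, 5.66 and 3.06% in WT HSPCs and 2.31 and 1.23% in KO HSPCs.

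Rnf2 (chr1:151458004-151500955, minus strand), which encodes the catalytic subunit RING1B, had no H3K27me3 peak in its span or promoter window in any of the 8 mouse libraries. That was so for 16.5% of all gene spans and 22.8% of all promoters. H2AK119ub lay over a small share of the gene, 3.50 and 1.62% in mES WT, 0 and 0.0559% in mES KO, 5.59 and 5.88% in WT HSPCs and 2.52 and 3.59% in KO HSPCs. At the Rnf2 promoter H2AK119ub was 0 and 25.0% in mES WT and again 0 and 25.0% in mES KO, against 42.9 and 79.8% in WT HSPCs and 31.5 and 69.1% in KO HSPCs. Its surroundings held little of the mark too, 4.04 to 5.07% of the bases in mES cells and 2.45 to 3.38% of those in HSPCs.

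**Figure D3:**
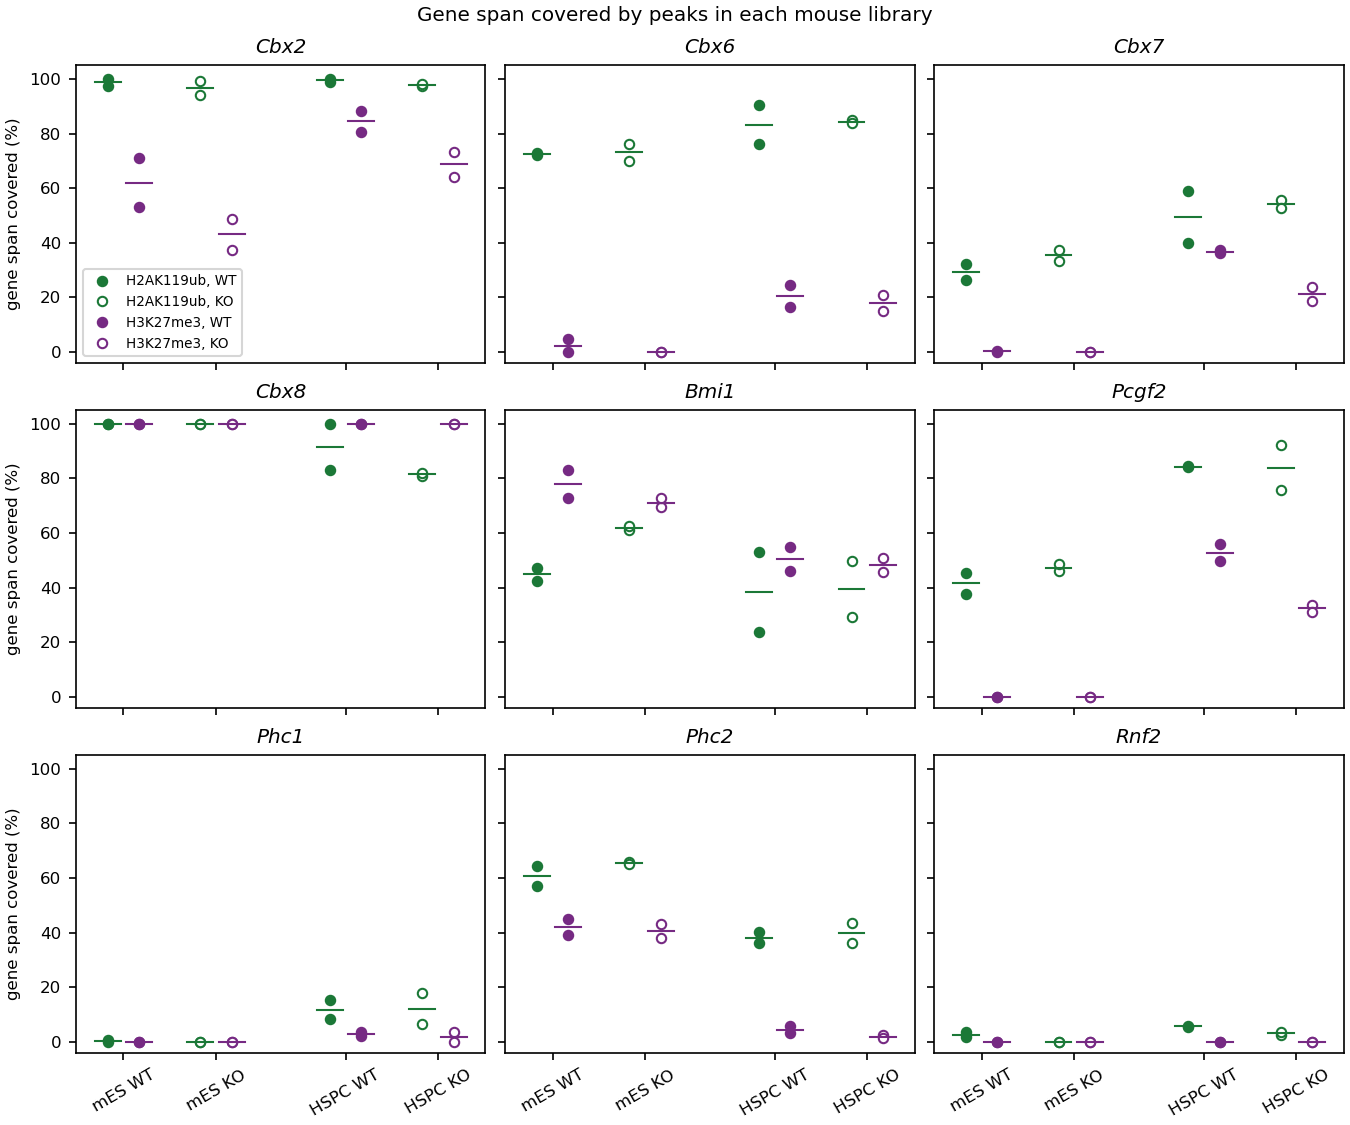
Percent of the gene span under H2AK119ub and under H3K27me3 peaks for each member in mES cells and HSPCs, each point being 1 library (filled for WT, open for KO), each line the mean of 2, and the colours the marks. Cbx8 sits at or above 80.8 throughout, and Phc1 and Rnf2 sit at or below 17.7.

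Set side by side, HSPCs had more of the span of Cbx7 and Pcgf2 under both marks than mES cells and less of the span of Phc2, with no overlap between the libraries. With the 4 libraries of each cell type pooled over genotype, a member was called different when no library of one cell type overlapped the other. Every HSPC H2AK119ub list was shorter, 138.8 to 177.0 Mb against 235.1 to 259.9 Mb in mES cells. The H3K27me3 lists overlapped in Mb, 164.6 to 200.9 in HSPCs and 149.4 to 232.5 in mES cells. Their peak numbers did not overlap, 85098 to 100807 in HSPCs and 102348 to 125318 in mES cells. The part of list length in the calls was not tested. For H2AK119ub over the gene span, Cbx7, Pcgf2 and Phc1 were higher in HSPCs (3 of 9, where 20.9% of all genes were) and Phc2 was lower (1 of 9, 20.5%). The mES and HSPC means were 44.5% ± 4.65 and 84.1% ± 6.83 (SD, n = 4) for Pcgf2, 32.3% ± 4.63 and 51.8% ± 8.40 for Cbx7, and 0.137% ± 0.274 and 12.0% ± 5.31 for Phc1. For Phc2 it was 63.1% ± 3.97 in mES cells and 39.0% ± 3.43 in HSPCs. For H3K27me3, Cbx6, Cbx7 and Pcgf2 were higher in HSPCs (3 of 9, 27.1% of all genes) and Bmi1 and Phc2 were lower (2 of 9, 17.3%). The HSPC minus mES difference was 42.6 percentage points for Pcgf2, 28.8 for Cbx7 and 18.1 for Cbx6, and -25.1 for Bmi1 and -38.2 for Phc2. The median difference over the 9 members was 3.10 points for H2AK119ub and 2.30 for H3K27me3, against 0 and 0.119 over all genes.

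Each of these non-overlapping members had p = 0.0286 by exact permutation of the 8 libraries (70 assignments, two-sided), which is the smallest value the design allows. Permuted within genotype, each had an exact p of 0.0556, again the smallest possible. After Benjamini-Hochberg adjustment of the exact p over all 21938 genes it was 0.0689 for H2AK119ub and 0.0643 for H3K27me3, and no gene fell below 0.05. At an unadjusted exact p under 0.05 the calls were the non-overlapping genes themselves, 4588 higher and 4507 lower for H2AK119ub and 5949 higher and 3799 lower for H3K27me3. In the promoter window, Pcgf2 had 94.3 points more H3K27me3 in HSPCs (1 of 9 higher, 22.8% of all genes), a difference reached by 1.43% of genes in either direction, and Phc2 differed by -82.0 points (1 of 9 lower, 8.7%), reached by 3.44%. For H2AK119ub the promoter window separated Cbx6 and Rnf2 as higher in HSPCs (2 of 9, 15.6% of all genes), by 22.5 and 43.3 points, and none as lower (8.58%). Cbx7 changed direction with the measure. At its 5′ end H2AK119ub was 16.9 points lower in HSPCs on average and H3K27me3 6.26 points lower, both with overlapping libraries. The Pcgf2 difference in H2AK119ub was also absent from the promoter window, which was nearly full in both cell types (mES 96.9% ± 6.22, HSPC 94.3% ± 11.4, SD, n = 4).

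**Figure D4:**
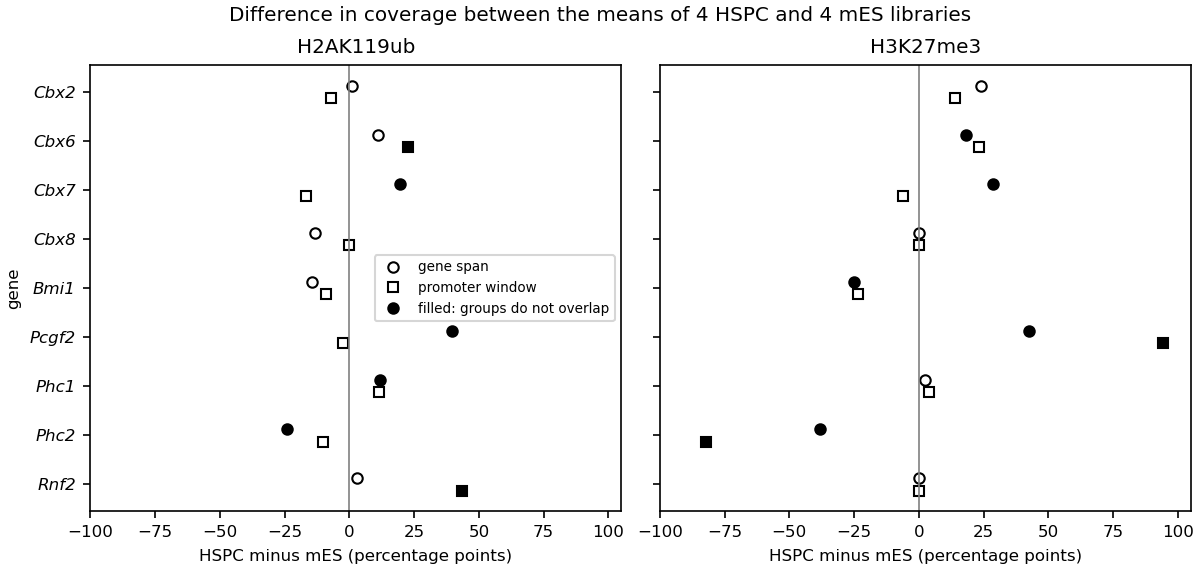
HSPC minus mES difference in percent covered for each member, over the gene span and over the promoter window, for H2AK119ub and H3K27me3 on a common axis in percentage points, with circles for the span, squares for the promoter window and filled symbols where the 4 libraries of each cell type do not overlap. Pcgf2 lies farthest to the right and Phc2 farthest to the left for H3K27me3 in the promoter window, at 94.3 and -82.0.

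The loss of Tet2 was then compared within each cell type, where 2 libraries face 2 and an exact permutation test (two-sided) cannot go below p = 0.333. Members are therefore described by whether the libraries overlapped, beside the share of all genes that did the same. In mES cells, H2AK119ub over the gene span was higher in both KO libraries for Cbx7, Bmi1, Pcgf2 and Phc2 (4 of 9, where 14.8% of all genes were) and lower for Rnf2 (1 of 9, 15.4%). Bmi1 differed most, from 44.9% ± 3.24 (SD, n = 2) to 61.8% ± 1.18, a gap reached in size by 3.60% of genes. The others were smaller, 6.19 points for Cbx7, 5.85 for Pcgf2 and 4.65 for Phc2, and -2.53 for Rnf2. None of the 9 was higher in both KO libraries in the promoter window (10.2% of all genes), where Cbx7 turned to -8.67 and Pcgf2 to -6.22 points. There Cbx7 and Phc1 were the members lower in both KO libraries (2 of 9, 8.91% of all genes). At Cbx7 a short peak was narrower in KO. At Phc1 the WT libraries had 1 short peak each, at different positions (chr6:122340437-122340937 and chr6:122341153-122341653), and neither KO library had a peak in the window.

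H3K27me3 in mES cells was lower in both KO libraries for Cbx2 and Bmi1 (2 of 9, where 21.5% of all genes were) and higher for none of the 9 (5.37%). Cbx2 went from 62.0% ± 12.7 (SD, n = 2) to 43.1% ± 8.21, and Bmi1 from 78.1% ± 7.35 to 71.1% ± 2.28. In the promoter window the same pair was lower (2 of 9, 16% of all genes) and none was higher (1.9%), with Cbx2 at 100% in both WT libraries and 71.8% ± 2.61 in KO. The mES KO replicate 2 list was the shortest of this comparison, 149.4 Mb against 188.9 to 232.5 Mb in the other 3. Around Cbx2 the flanking H3K27me3 was 41.7 and 45.1% for WT, and 42.4 and 34.6% for KO, which overlapped between the genotypes. Cutting the lists of a comparison to equal peak number left the direction of both differences as it was. The cut kept the first peaks in the order of the list, which holds no score, so it need not remove the weakest peaks. The part of list length in the differences was not tested.

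In HSPCs, H2AK119ub was lower in both KO libraries for Cbx2, Cbx8 and Rnf2 (3 of 9, 9.4% of all genes) and higher for none of the 9, although 19% of all genes were higher. Their differences were -1.63 points for Cbx2, -10.1 for Cbx8 and -2.69 for Rnf2. Without WT replicate 1, whose Cbx8 value was 100%, the Cbx8 difference rests on 83.2% against 80.8 and 82.1%. In the promoter window, Cbx7 and Bmi1 were lower (2 of 9, 5.05%) and none was higher (18.8%): Cbx7 had its 501-bp peak in neither KO library, and Bmi1 went from 27.6% ± 2.61 to 14.9% ± 12.1 (SD, n = 2). H3K27me3 in HSPCs was lower in both KO libraries for Cbx2, Cbx7, Pcgf2 and Phc2 (4 of 9, 18.4% of all genes) and higher for none of the 9 (14.9%). The mean went from 84.4% ± 5.51 to 68.8% ± 6.51 for Cbx2, from 36.6% ± 0.736 to 21.1% ± 3.59 for Cbx7 and from 52.8% ± 4.37 to 32.4% ± 1.79 for Pcgf2 (SD, n = 2). Phc2 was low in both, 4.36% ± 1.83 and 1.77% ± 0.766. The flanks of Pcgf2 were lower in KO too, 34.4 and 34.6% for WT against 29.9 and 29.4% for KO. Those of Cbx7 were 24.6 and 26.4% against 22.2 and 21.6%. The flanks of Cbx2 overlapped, and those of Phc2 were higher in KO (10.3 and 10.7% against 13.3 and 11.7%). The part of the flanks in the gene differences was not tested. Differences as large as that of Pcgf2, -20.4 points, were seen in 5.59% of genes, and as large as that of Cbx7, -15.5 points, in 8.03%. The median over the 9 members was -2.59 points, against 0 over all genes and -0.109 over genes with a peak in any of these libraries. Over the promoter window the member median was 0. In the promoter window Pcgf2 was lower (1 of 9, 8.79% of all genes) and Cbx6 higher, from 0% in both WT libraries to 46.6% ± 4.66 (1 of 9, 9.68%).

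With the cell types pooled, 1 member per mark was lower in both KO libraries of both cell types. The exact permutation test within cell types has 36 assignments and a smallest p of 0.0556. For H2AK119ub it was Rnf2 (1.89% of all genes), with a mean KO minus WT difference of -2.61 points (exact permutation p = 0.0556, adjusted p over all genes = 1). The Rnf2 span held 695 to 2525 bp under 2 to 5 peaks in the 4 WT libraries and 0 to 1540 bp under 0 to 3 peaks in the 4 KO libraries, and the call was lost when peaks under 1 kb were left out. For H3K27me3 it was Cbx2 (6.24% of all genes), with -18.9 points in mES cells and -15.7 in HSPCs, a mean of -17.3 (exact permutation p = 0.0556, adjusted p over all genes = 0.761). The Cbx2 call was lost in the promoter window, where all HSPC libraries were at 100%, and when peaks within 1 kb of each other were joined. Pcgf2 and Cbx7, lower in KO HSPCs, had 0 to 0.378% H3K27me3 in every mES library. Their KO minus WT difference was 20.4 and 15.3 points further down in HSPCs than in mES cells (exact permutation p = 0.333 for each). The H3K27me3 difference of Cbx8 was 0 in both cell types.

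In K562 cells few of the human genes carried H2AK119ub at their starts, as was so of human genes in general. Promoters of 2 of 9 members, CBX2 and PHC2, were touched in both siControl libraries (27.2% of all human genes) and the same 2 in both siMBD6 libraries (35.7%). CBX2 values there were 8.55 and 2.45% in siControl and 9.80 and 16.3% in siMBD6, and PHC2 values 25.0 and 45.3% in siControl and 25.0% in both siMBD6 libraries. CBX7 was touched in siMBD6 replicate 1 alone, at 5.90%. The other 6 promoters had no peak in any of the 4 libraries, as had 49.2% of all promoters. None of the 9 was at least 50% covered in both libraries of either group (8.98% of all genes in siControl, 13.6% in siMBD6). BMI1, PCGF2, PHC1 and RNF2 had no peak anywhere in their spans (4 of 9, 34.6% of all genes), and 1.38 to 2.87% of the bases around PHC1 and 10.4 to 13.9% of those around PCGF2 were covered. H3K27me3 was not analysed here in K562, and no test was made between the species, whose annotations differ.

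The marked K562 members were chromobox genes and PHC2. In the chromobox genes the mark lay mainly inside the gene, whereas PHC2 was more covered in its promoter window than over its span. CBX2 (hg38 chr17:79778148-79787983, plus strand) had 38.9 and 53.1% of its span covered after siControl, against 69.5 and 76.0% after siMBD6. CBX7 (chr22:39120167-39152680, minus strand) had 13.5 and 20.1% covered after siControl, against 30.5 and 33.3% after siMBD6. These were the 2 of 9 members higher in both siMBD6 libraries, where 34.6% of all genes were, and none was lower (1.28%). The mean was higher by 26.7 points for CBX2 and 15.1 for CBX7, gaps reached by 1.67% and 7.86% of genes (exact permutation p = 0.333 for each, two-sided, adjusted p over all 20033 genes = 0.928). In the promoter window CBX2 was higher by 7.55 points (1 of 9, 13.4% of all genes) and none was lower (2.2%). The siMBD6 lists covered more of the genome, 177.5 and 190.2 Mb against 132.2 and 132.1 Mb. The flanks of CBX2 were higher as well, 48.0 and 50.1% against 41.2 and 40.2%. Those of CBX7 were too, 20.03 and 22.3% against 15.8 and 14.4%. Lists cut to equal peak number, again in the order of the list, kept the direction of both gene differences. The part of list length in them was not tested.

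CBX8 coverage was 10.5 and 11.9% with siControl against 5.24 and 18.1% with siMBD6. In the same order it was for CBX6 0 and 18.5% and 6.30 and 15.1%, and for PHC2 11.5 and 17.0% and 16.5 and 17.9%. For these 3 the libraries of the groups overlapped. The human CBX2 to CBX8 locus, 23.5 kb, had 20.5 and 31.6% under peaks with siControl against 36.1 and 46.6% with siMBD6, where the mouse locus was at 88.6% or more in every H2AK119ub library. Some downstream starts held more than the gene starts. At a non-coding CBX7 start 17.9 kb downstream the coverage was 56.5 and 64.3% with siControl against 46.9 and 100% with siMBD6, and at a non-coding PHC2 start 76.2 kb downstream, the only one of the other 5 PHC2 starts with a mean above that of the gene start, it was 64.8 and 37.0% and 73.9 and 98.0%. A coding CBX8 start 4.61 kb downstream was at 25.0% in all 4 libraries.

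**Figure D5:**
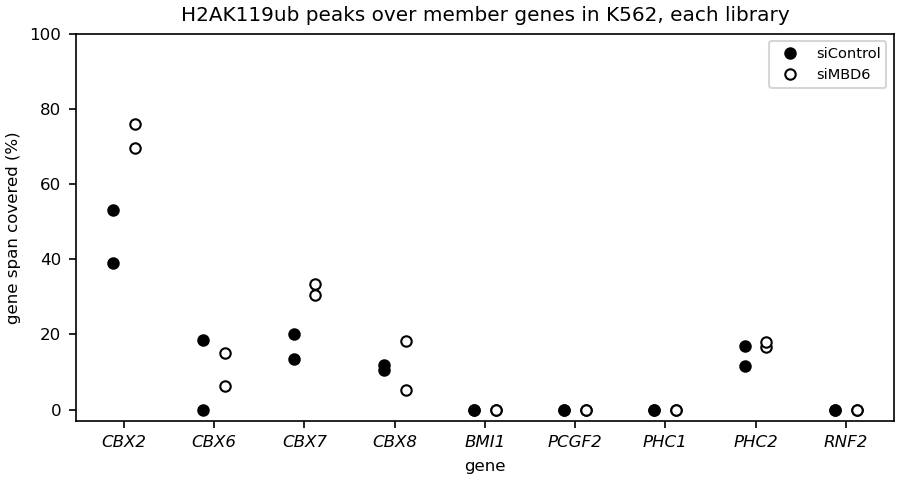
Percent of the gene span under H2AK119ub peaks in K562 cells for the 9 human members, each point being 1 of 2 siControl or 2 siMBD6 libraries. The siMBD6 points of CBX2 and CBX7 lie above both siControl points, and BMI1, PCGF2, PHC1 and RNF2 are at 0 in all 4.

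The other PRC1 genes were read from 2 lists, 4 further canonical genes and 14 genes of variant PRC1, the forms that hold RYBP or YAF2 in place of a CBX protein. Of the canonical 4, H2AK119ub touched the promoters of Phc3 and Ring1 in both mES WT libraries (2 of 4, where 63.1% of all genes were touched) and of these and Scmh1 in both WT HSPC libraries (3 of 4, 60.5%). H3K27me3 touched none of the 4 in mES WT cells (44.3% of all genes) and Phc3 in WT HSPCs (1 of 4, 54%). Of the variant 14, beside the same shares of all genes, H2AK119ub touched 13 in mES WT and 13 in WT HSPCs, and H3K27me3 touched 8 and 10. In K562, H2AK119ub touched none of the canonical 4 and 3 of the variant 14 (PCGF1, PCGF3 and FBRS) in siControl (27.2% of all genes), and none and 4 in siMBD6 (35.7%).

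In the comparison of KO with WT over the gene span, H3K27me3 was lower in both KO libraries for 6 of the 14 variant genes in mES cells and 4 in HSPCs, and higher for none and 4. Over all genes the lower share was 21.5 and 18.4% and the higher share 5.37 and 14.9%. H2AK119ub was higher in both mES KO libraries for none of the 14 (14.8% of all genes) and lower for 4 (15.4%). In HSPCs it was higher in KO for 5 (19%) and lower for 1 (9.4%). For H3K27me3, Pcgf1, the PCGF subunit of the complex that KDM2B brings to CG islands, was the one lower in both cell types. That is 1 of 14, near the 6.24% of all genes. Its H3K27me3 was 47.4 and 46.7% in mES WT and 29.1 and 14.4% in mES KO, and for HSPCs 90.9 and 100% (WT) against 77.1 and 70.3% (KO). The bases around Pcgf1 on chromosome 6 were 25.1 and 29.0% covered in mES WT and 21.4 and 16.1% in mES KO, so the surroundings were lower in KO too. Bcor, on the X chromosome, moved in opposite directions, from 48.1 and 49.7% to 37.5 and 33.2% in mES cells and from 11.4 and 12.1% to 89.6 and 89.1% in HSPCs. The HSPC value of Bcor stands beside the X-wide gap given above, and the sex behind each library is not given. Among the canonical 4, H2AK119ub was lower in KO for Scmh1 in mES cells (15.4% of all genes), from 1.31 and 2.16% to 0.917 and 1.03%. In HSPCs it was lower for Ring1 (9.4%), from 100% in both WT libraries to 90.4 and 75.8%. For Scml2 it was higher there (19%), from 0% in both to 0.711 and 0.485%. H3K27me3 of Scml2 was lower in mES KO cells, from 0.900 and 1.57% to 0.554 and 0.355%. It was higher in KO HSPCs, from 0% in both WT libraries to 23.2 and 23.9%. Scml2 is also X-linked. The Scmh1 values, and those of Scml2 other than H3K27me3 in KO HSPCs, were near 0.

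For each member, the protein-coding gene with the smallest mean absolute difference in span coverage over the 16 mouse libraries was found. It was Sox10 for Cbx8 (1.30 points), Dnajb14 for Rnf2 (0.405), Stk38l for Phc1 (0.955), Scrib for Cbx6 (3.02) and Tlcd1 for Pcgf2 (3.96). It was Fblim1 for Cbx7 (4.31), Rgs3 for Phc2 (4.49), Irs3 for Cbx2 (4.86) and Cfap99 for Bmi1 (7.60). No member was the nearest gene of another. The values for Rnf2 and Phc1 are small because both genes are near 0 in most libraries, and Bmi1 had the least similar nearest gene of the 9.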

How the data were processed

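CUT&Tag peak lists were used as deposited, 1 list for each of 20 libraries, with positions only: each line holds the chromosome, start and end of a peak, and no count, score or p-value. The authors, per the submitters' processing notes and the published methods, used Trimmomatic 0.39 for trimming and Bowtie2 2.4.1 for alignment to mm10 or hg38 together with a Drosophila spike-in, with Picard to drop duplicates and MACS2 to call broad peaks (HOMER 4.9 is also named in the notes). Spike-in scaling acts on signal and is not carried by positions, and depth is unknown. Starts were read as counted from 0 and written from 1.

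Genes were protein-coding genes of GENCODE (mouse vM21, human v44), with sequence from GRCm38 and hg38, the builds of the lists. Coverage is the percent of bases under at least 1 peak, over the gene span or over 1 kb on each side of the gene's 5′ end. It was computed for all genes with numpy 2.4.6, pandas 2.3.3 and matplotlib 3.10.9 under Python 3.11.15, and tested on simulated data. The starts of a gene's transcripts were read in the same way.

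A gene was called different when the groups' libraries did not overlap. Two-sided exact permutation tests ran over the 6 assignments of 4 libraries, the 70 of 8, or the 36 within cell types, with Benjamini-Hochberg adjustment over all genes. Groups came from the sample labels. All 9 members are named, listed PRC1 genes are given as counts with those that moved one way in both cell types named, and 1 nearest gene per member. One gene of the canonical list is not reported here. Bcor and the other list genes given with values or directions were chosen after their values were seen. The members, the lists and the tests were chosen with earlier results of these data known. Replicate numbers did not pair libraries: the correlation over genes of the deviations of same-numbered libraries ran from -0.300 to 0.0394 over the 5 KO or siRNA comparisons.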

Additional observations from a re-analysis of the deposited data

How the results depend on the processing

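Cutting lists to equal peak number changed no count of members by more than 1.5 times. The cut kept the first peaks in the order of each list, and the lists hold no score to rank by. The 9 members gave these counts of non-overlapping genes under other settings. For mES H2AK119ub, 4 were higher in KO over the gene span, 0 in the promoter window, 1 in the window of 2 kb on each side and 0 at the most covered start; 1 was lower, against 2 in either window, 0 with peaks of at least 1 kb and 2 with the replicate block. For mES H3K27me3, 2 were lower, against 1 with peaks within 1 kb joined, 1 in the 2-kb window and 1 at the most covered start. For HSPC H2AK119ub, 3 were lower, against 1 with peaks joined, 1 in the 2-kb window and 0 at the most covered start. For HSPC H3K27me3, 4 were lower, against 1, 1 and 0 in the promoter window, the 2-kb window and at the most covered start, and 0 were higher, against 1 in each of those. In K562, 2 were higher, against 1 in the promoter window.

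Between HSPCs and mES cells, H2AK119ub was higher for 3 members, against 1 with peaks of at least 1 kb, 5 with the replicate block and 5 in WT libraries only, and lower for 1, against 0 in the promoter window, the 2-kb window and at the most covered start. H3K27me3 was higher for 3, against 1 in either window and 5 in WT only, and lower for 2, against 1 in either window and 1 at the most covered start. With at least 50% of the window required, promoters counted went from 8 to 4 (mES WT H2AK119ub), 9 to 5 and 8 to 5 (HSPC WT and KO H2AK119ub), 5 to 3 (HSPC H3K27me3, both genotypes) and 2 to 0 (K562, both groups). Peaks of at least 1 kb gave 4 for mES WT H2AK119ub and 0 in K562, and the most covered start gave 4 in both K562 groups. In both cell types together, Rnf2 for H2AK119ub (1 member) went to 0 with peaks of at least 1 kb, and Cbx2 for H3K27me3 (1 member) to 0 in the promoter window and with peaks joined.

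Leaving out 1 library gave 4 to 5 higher and 1 to 3 lower (mES H2AK119ub), 2 to 4 lower (mES H3K27me3, 4 without WT replicate 1), 0 to 4 higher (4 without WT replicate 1) and 3 to 6 lower (6 without WT replicate 2; HSPC H2AK119ub), 5 to 6 lower (HSPC H3K27me3), and 2 to 4 higher (4 without siControl replicate 2 or siMBD6 replicate 1) and 0 to 1 lower in K562. The mES H2AK119ub count of 3 lower came without WT replicate 2 or KO replicate 1. Between cell types it gave 3 to 4 higher for either mark and 1 to 2 lower for H2AK119ub. In both cell types together it gave 0 to 3 higher and 1 to 2 lower for H2AK119ub and 1 to 3 lower for H3K27me3. A group of 1 library is easier to separate from 2.

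Directions reversed for Cbx7 and Pcgf2 in mES H2AK119ub (KO minus WT -8.67 and -6.22 points in the promoter window, -4.24 and -12.0 in the 2-kb window), for Phc2 in HSPC H3K27me3 (2.19 in the 2-kb window), and between HSPCs and mES cells for Cbx7 (H2AK119ub -16.9 and -9.42, H3K27me3 -6.26 and -3.13, in the 2 windows) and Pcgf2 (H2AK119ub -2.57 in the promoter window). The cause was not tested, apart from the starts of Cbx7 given in the report. Replicate numbers shared no more than a number, and the replicate block changed no count by more than 1.5 times except those given. With mES H3K27me3 numbers crossed, 3 members were lower. The crossed pairing, the joined and 1-kb settings for both cell types together, and leaving out libraries for promoter counts were chosen after seeing the data.

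Positions alone limit what can be read: depth and signal height are unknown, a 501-bp peak is the smallest step, and a covered region gives no amount of mark. No exact p can pass 0.05 where 2 libraries face 2 or libraries are permuted within cell type or genotype.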
